A study of Mus musculus with 6 samples.

Results

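The 44 protein-coding genes whose symbols name a collagen alpha chain (Col, a type number, a and a chain number) were taken from the deposited table of 54532 genes, which gives their level in 3 RNA-seq libraries labelled aged and 3 labelled young. Per the labels, RNA came from the lungs of mice aged 18 months in the aged group and 3 months in the young group. No treatment is named for either group, and strain, sex and any pooling of animals were not given in the sources used here. Nothing in the labels ties each library to a mouse of its own, and p-values thus reflect the spread among 3 libraries a group, which may be technical. By class the members were 11 fibrillar, 9 network-forming, 9 FACIT (fibril-associated with interrupted triple helices), 6 beaded-filament, 4 transmembrane, 2 multiplexin and 1 anchoring-fibril chain, with 2 others (Col26a1 and Col28a1).

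A collagen molecule is a triple helix of 3 alpha chains, either alike or of different genes. Fibrillar collagens pack into the banded fibrils that carry tension, with type I and type III as the main fibrils of lung and other connective tissue and type V inside them. Type IV chains form the sheet of basement membranes, type VI chains form beaded microfilaments between fibrils and cells, FACIT collagens sit on the surface of fibrils, type VII anchors basement membranes to the tissue below, and transmembrane collagens span the cell surface. Chains are hydroxylated and folded in the endoplasmic reticulum, trimmed by propeptidases outside the cell and crosslinked by lysyl oxidases.

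The contents of all 6 libraries went against the tissue label. Sftpc, a surfactant gene of alveolar type 2 cells, reached at most 0.112 FPKM (fragments per kilobase of gene length, scaled to library size, the unit of the table), Ager of type 1 cells at most 0.679 FPKM, and endothelial Pecam1 and leukocyte Ptprc at most 0.322 and 0.0953 FPKM. Of the other type 1 markers, Aqp5, which gland epithelium also makes, was at a mean of 88.3 FPKM in libraries labelled aged and 56.6 FPKM in those labelled young, Hopx at 5.97 and 10.2 FPKM, and Rtkn2 and Clic5 at most at 1.56 and 0.112 FPKM. Among 10 fibroblast markers, Pdgfra, Pdgfrb and Dpt reached at least 10 FPKM in all 6 libraries, Tcf21 was at 0, and Dcn reached at most 0.109 FPKM. Their summed level was 51.9 to 56.2 FPKM in libraries labelled aged, against 56.3 to 58.1 FPKM in the young-labelled ones. Within the list, Pdgfra was called lower (12.3 against 18.1 FPKM), Mfap5 and Pdgfrb higher (1.82 against 1.02 FPKM and 23.4 against 21.4 FPKM), and Fap, below the filter, was at 0.0344 against 0.320 FPKM. Bone markers summed to 17.2 to 19.3 FPKM against 21.7 to 22.5 FPKM, with Runx2 called lower (5.50 against 10.2 FPKM). Sp7 (2.57 against 2.40 FPKM) and Dmp1 (9.68 against 9.30 FPKM) were not called. Below the filter, Bglap and Ibsp had 11 and 6 reads against 1 and 0, and Alpl had 26 against 55. Summed markers of leukocytes, mostly Lyz2 and Cd68, lay at 34.9 to 35.4 FPKM against 10.3 to 12.7 FPKM, those of cartilage, mostly Sox9, at 13.6 to 15.7 FPKM against 5.74 to 7.18 FPKM, and those of endothelium at 0.919 to 1.28 FPKM against 0.367 to 0.739 FPKM. The 6 proliferation markers were at 10 FPKM or more in every library and summed to 388 to 401 FPKM against 334 to 342 FPKM. Of them 4 were called higher, such as Aurka (69.4 against 35.1 FPKM), beside 27.7% of all tested genes. Mki67 (54.3 against 76.0 FPKM) was called lower, beside 32.3%, and Top2a (117 against 116 FPKM) was not called. The part of these cell types and of proliferation in the results below was not tested. Kidney markers summed to 129 FPKM in young replicate 1 and 26.1 FPKM in young replicate 3, mostly from Kap, against 1.31 FPKM in young replicate 2 and 2.25 to 3.08 FPKM in libraries labelled aged. Members whose call changes without those 2 libraries are named below, and counts by class are given for all 6 libraries only. Whole reads recovered from the values summed to 16649061 to 16906850 per aged-labelled library and 17266815 to 17456715 per young-labelled library. In bulk RNA, fewer cells of a type and less RNA per cell cannot be told apart.

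The promoters of 5 abundant chains, chosen by the results of those chains, are shown. No link between promoter sequence and a change in level was tested. Col3a1 and Col5a3 had the largest falls among abundant chains, Col1a2 was the most abundant chain, and Col4a1 and Col4a2 are read in opposite directions from start sites that lie 21 bases apart. The windows run from 250 bases before to 50 bases after the RefSeq start site (GRCm38.p6), 5′ to 3′ on the strand of the gene. They are chr1:45311288-45311587 on the plus strand for Col3a1, chr9:20815018-20815317 on the minus strand for Col5a3, chr6:4505368-4505667 on the plus strand for Col1a2, chr8:11312777-11313076 on the minus strand for Col4a1 and chr8:11312555-11312854 on the plus strand for Col4a2. Capitals mark matches, on either strand, to CCAAT (the box of NF-Y), GGGCGG (the GC box of Sp1), TATAAA (the TATA box) and TGANTCA (the AP-1 site).
Col3a1: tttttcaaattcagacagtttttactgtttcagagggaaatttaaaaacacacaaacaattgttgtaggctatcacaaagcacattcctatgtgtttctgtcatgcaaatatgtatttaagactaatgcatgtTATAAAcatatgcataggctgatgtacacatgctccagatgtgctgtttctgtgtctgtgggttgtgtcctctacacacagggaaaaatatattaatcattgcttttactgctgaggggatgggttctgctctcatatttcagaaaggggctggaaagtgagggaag
Col5a3: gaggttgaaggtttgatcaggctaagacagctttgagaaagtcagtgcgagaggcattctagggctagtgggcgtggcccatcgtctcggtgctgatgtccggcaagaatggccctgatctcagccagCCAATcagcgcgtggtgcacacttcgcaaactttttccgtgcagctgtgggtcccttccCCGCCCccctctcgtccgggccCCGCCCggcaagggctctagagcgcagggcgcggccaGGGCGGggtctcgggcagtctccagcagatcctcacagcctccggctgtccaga
Col1a2: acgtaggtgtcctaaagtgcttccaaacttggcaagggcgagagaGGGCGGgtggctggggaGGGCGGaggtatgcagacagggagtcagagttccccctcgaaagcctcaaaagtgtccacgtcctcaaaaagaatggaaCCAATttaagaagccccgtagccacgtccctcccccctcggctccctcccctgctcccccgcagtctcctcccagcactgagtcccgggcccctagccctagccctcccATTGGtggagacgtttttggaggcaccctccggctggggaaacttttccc
Col4a1: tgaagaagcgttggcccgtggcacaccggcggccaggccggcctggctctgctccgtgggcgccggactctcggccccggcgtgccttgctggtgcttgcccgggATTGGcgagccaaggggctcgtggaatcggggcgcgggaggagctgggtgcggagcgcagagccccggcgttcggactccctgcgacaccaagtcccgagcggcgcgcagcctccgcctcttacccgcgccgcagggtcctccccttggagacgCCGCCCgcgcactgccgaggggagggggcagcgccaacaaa
Col4a2: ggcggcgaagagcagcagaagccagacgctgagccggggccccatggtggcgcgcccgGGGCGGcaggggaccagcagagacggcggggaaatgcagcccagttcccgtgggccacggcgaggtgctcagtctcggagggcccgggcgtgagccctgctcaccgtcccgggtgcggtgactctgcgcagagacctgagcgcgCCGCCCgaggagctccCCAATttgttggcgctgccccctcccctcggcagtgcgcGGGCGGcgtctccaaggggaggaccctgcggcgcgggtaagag

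The windows differed in base content and in matches. The Col3a1 window was 37.7% G and C and held 1 TATAAA match, 117 bases before the start site, and no match to the other motifs. The Col5a3 window held 1 CCAAT match, 122 bases before the start site, and 3 GGGCGG matches. The Col1a2 window held 2 CCAAT matches, of which 1 began 109 bases before the start site, and 2 GGGCGG matches. The Col4a1 and Col4a2 windows were 74.0% and 73.7% G and C, against a median of 52.7% over 32851 promoter windows, and shared 78 bases. Each held 1 CCAAT match, and they held 1 and 3 GGGCGG matches, of which 1 lies in the shared bases and was counted in both. No marked match overlapped another in these 5 windows. Over all promoter windows of the same length, 37.4% held CCAAT, 35.7% GGGCGG, 13.6% TATAAA and 7.81% TGANTCA. A match is a run of letters and not a shown binding site. RefSeq windows were found for 35 of the 44 members. The other 9 were Col1a1, Col2a1, Col4a3, Col5a2, Col9a3, Col12a1, Col14a1, Col22a1 and Col26a1.

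Collagen chain RNA was lower in sum in the libraries labelled aged, and the class sums moved in different directions. Of the fibrillar chains 5 of 7 tested fell, all 3 tested chains of the beaded filament fell, and the basement membrane chains Col4a1 and Col4a2 rose. Summed over the 44 members, levels were 1127, 1123 and 1178 FPKM in the libraries labelled aged and 1464, 1503 and 1489 FPKM in those labelled young, a ratio of 0.769 aged over young. Collagen reads made up 0.971% to 1.01% of all reads in the aged-labelled libraries, against 1.25% to 1.28% in the young-labelled ones. Without Col1a1 and Col1a2, the ratio of summed FPKM was 0.839. These sums are descriptions with no test. By class, the mean sum was 584 ± 29.9 FPKM against 849 ± 16.3 FPKM for fibrillar chains (SD, n = 3 here and below), 154 ± 4.70 against 248 ± 2.28 FPKM for beaded chains and 43.0 ± 0.798 against 82.6 ± 2.46 FPKM for FACIT chains. Network chains ran the other way in sum, at 277 ± 2.54 FPKM in libraries labelled aged against 232 ± 3.40 FPKM in those labelled young. Within that class, Col4a2 (124 against 81.5 FPKM) and Col4a1 (119 against 107 FPKM) were called higher. Col8a1 (21.8 against 31.5 FPKM) was called lower, and Col4a5 and Col8a2 were not called.

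**Figure D1:**
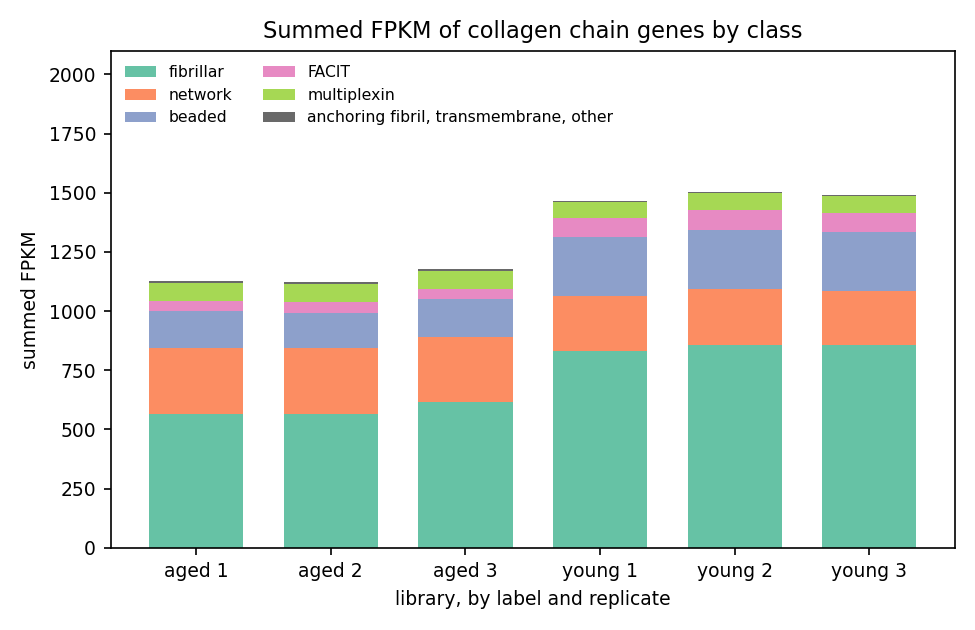
Summed FPKM (vertical axis) of the collagen chain genes in each library, stacked by class, with the 3 libraries labelled aged left of the 3 labelled young. The whole bars stand at 1123 to 1178 FPKM for aged and 1464 to 1503 FPKM for young, while the network segment is larger in those labelled aged.

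Genes were tested by limma on log2(FPKM + 1) where at least 3 libraries reached 0.5 FPKM, and p-values were adjusted over all 15197 tested genes. Of the 44 members, 23 passed this filter, of which Col12a1 passed only through the libraries labelled aged and Col20a1 only through those labelled young. Of the 23, 19 were called at an adjusted p under 0.05, beside 60.0% of all tested genes. The 19 were 7 higher, where 27.7% of all tested genes were called higher, and 12 lower, where 32.3% were called lower. Without the 2 libraries holding kidney transcripts, which leaves 1 young library, Col4a1, Col17a1, Col18a1 and Col5a1 were no longer past the threshold. A gene passed through both groups where at least 1 library of each group reached 0.5 FPKM. Of the 21 members that passed the filter through both groups, 6 were higher and 11 lower, beside 26.2% and 32.5% of the 14642 genes that passed through both. Among the 11, Col9a1 was near that cutoff in libraries labelled aged, at 0.562, 0.454 and 0.574 FPKM. Aged and young values were fully separate for 19 of the 23, beside 66.9% of tested genes. Over the 21 members and the 14642 genes that passed through both groups, the median log2 fold change was -0.19 and -0.04. By class, and counting members that passed through both groups, 5 of 7 fibrillar chains were lower and 1 higher (median -0.58), 3 of 3 beaded chains were lower (median -0.78), 2 of 3 FACIT chains were lower, and 1 of 5 network chains was lower and 2 were higher (median 0.03). The single tested transmembrane, anchoring-fibril and multiplexin chains were each higher. Just inside the filter stood Col8a2, at 0.506 to 0.959 FPKM in libraries labelled aged, against 0.594 to 0.796 FPKM in the young-labelled ones. Just outside it stood Col28a1, whose highest value was 0.409 FPKM, and Col23a1, whose highest was 0.355 FPKM.

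**Figure D2:**
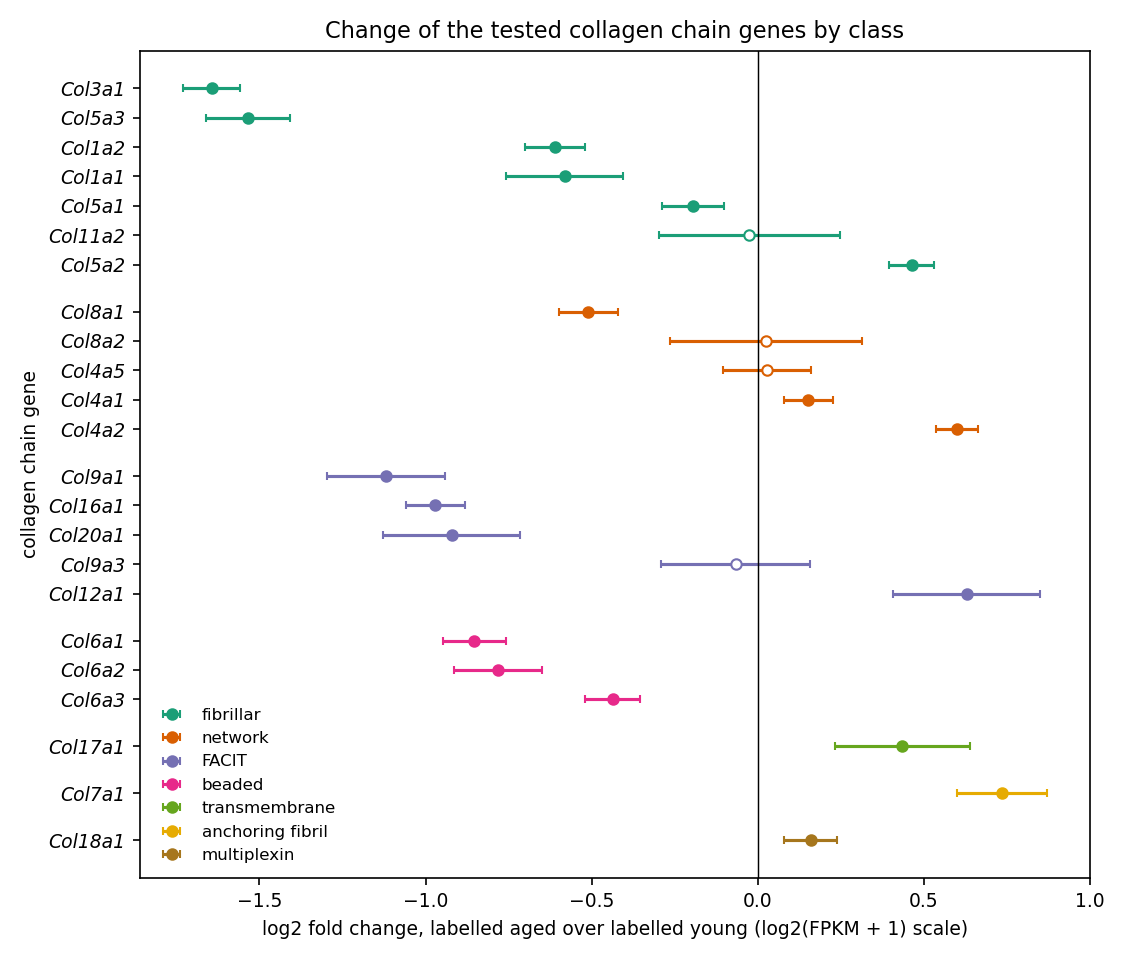
Log2 fold change of the 23 tested chains (horizontal axis, aged over young on the log2(FPKM + 1) scale), grouped by class, with 95% confidence intervals from limma. Filled points passed an adjusted p of 0.05 and open points did not. All 3 beaded chains and 5 of 7 fibrillar chains lie left of 0 with filled points, while Col4a2, Col5a2 and Col7a1 lie right of it.

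Type I collagen, the most abundant fibril former, fell in both of its chains. Col1a1, the alpha 1 chain (chromosome 11, 94936224 to 94953042, plus strand, mm10 here and below), had 155, 153 and 184 FPKM in the libraries labelled aged, against 236, 249 and 251 FPKM in those labelled young. Col1a2, the alpha 2 chain (chromosome 6, 4504814 to 4541544, plus strand), had 215, 215 and 229 FPKM in libraries labelled aged, against 331, 339 and 336 FPKM in those labelled young. In both chains every library labelled aged lay below every library labelled young, and aged replicate 3 was the highest of its group. The fall was 1.49-fold for Col1a1 (log2 fold change -0.58 ± 0.07 SE, limma adjusted p = 0.000584) and 1.53-fold for Col1a2 (log2 fold change -0.61 ± 0.04 SE, limma adjusted p = 2.61e-05). Type I chains made up 33.6% ± 1.26 of summed collagen FPKM in libraries labelled aged and 39.1% ± 0.350 in those labelled young.

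Type III collagen, a homotrimer that forms thin fibrils with type I, fell most among the abundant chains. Col3a1 (chromosome 1, 45311538 to 45349706, plus strand) had 18.8, 19.3 and 19.7 FPKM in libraries labelled aged, against 60.1, 63.0 and 63.7 FPKM in those labelled young. The groups were far apart and narrow, with coefficients of variation of 2.38% and 3.08%. The fall was 3.24-fold (log2 fold change -1.64 ± 0.04 SE, limma adjusted p = 1.11e-06), and of all tested genes 2.03% were called and at least 2-fold lower on that log2 scale.

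The 3 chains of type V collagen, which sits inside type I fibrils and limits their width, went different ways. Col5a3 (chromosome 9, 20770050 to 20815067, minus strand) had 17.0, 18.0 and 18.7 FPKM in libraries labelled aged, against 50.3, 55.3 and 55.9 FPKM in those labelled young, a 3.01-fold fall (limma adjusted p = 3.91e-06). Col5a1 (chromosome 2, 27886425 to 28039514, plus strand), the alpha 1 chain, had 80.4, 80.6 and 87.1 FPKM against 94.2, 94.6 and 95.2 FPKM in libraries labelled young. This was a 1.14-fold fall (log2 fold change -0.19 ± 0.04 SE, limma adjusted p = 0.00457), with adjusted p = 0.0776 without the 2 libraries holding kidney transcripts, where 1 young library remained. Col5a2 (chromosome 1, 45374321 to 45503282, minus strand), the alpha 2 chain, rose, with 77.8, 78.4 and 78.8 FPKM in libraries labelled aged against 57.6, 56.5 and 55.5 FPKM in those labelled young. Its rise was 1.39-fold (log2 fold change 0.46 ± 0.03 SE, limma adjusted p = 2.56e-05). None of the 3 genes overlapped between groups. On the opposite strand, Gm13372 (12.6 ± 2.10 against 14.4 ± 1.69 FPKM) and 2810430I11Rik (0.793 ± 0.0217 against 1.07 ± 0.0283 FPKM) overlap the span of Col5a1. Strand use in counting was not given in the sources used here. Type V chains together made up 15.7% ± 0.104 of summed collagen FPKM in libraries labelled aged and 13.8% ± 0.0715 in those labelled young, and type III 1.68% ± 0.0304 against 4.19% ± 0.0871. Col5a2 and Col3a1 are neighbours, 24614 bases apart and read toward each other, and their changes had opposite signs.

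The other fibrillar chains were low. Col11a2, of the type XI fibrils of cartilage, had 1.24 ± 0.305 FPKM in libraries labelled aged and 1.26 ± 0.0675 FPKM in those labelled young, with overlapping groups and a 95% interval of -0.30 to 0.25 for its log2 fold change (limma adjusted p = 0.868). Col2a1, the main cartilage fibril chain, reached at most 0.159 FPKM, Col24a1 0.237 FPKM, Col27a1 0.0894 FPKM and Col11a1 0.0694 FPKM, so these 4 did not pass the filter.

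**Figure D3:**
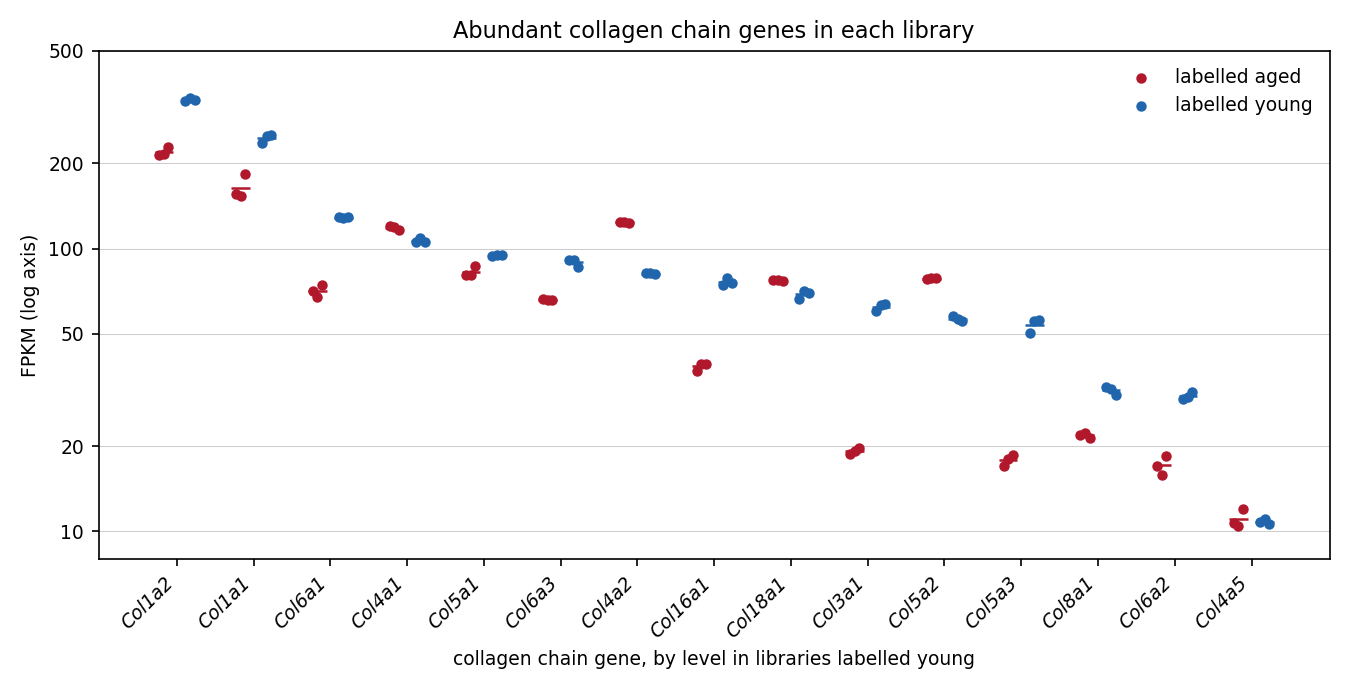
FPKM (vertical log axis) of the 15 chains with a group mean of at least 10 FPKM in each library, where each point is 1 library, lines are group means and libraries labelled aged stand left of those labelled young. Col3a1 and Col5a3 show the widest gaps, at 19.2 against 62.3 FPKM and 17.9 against 53.8 FPKM, and Col4a1, Col4a2, Col5a2 and Col18a1 are higher in the libraries labelled aged.

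Among network-forming chains, the alpha 1 and alpha 2 chains of basement membrane type IV collagen rose by unequal amounts. Col4a2 (chromosome 8, 11312805 to 11449287, plus strand) had 124, 124 and 123 FPKM in libraries labelled aged, against 81.8, 81.8 and 81.0 FPKM in those labelled young. Col4a1 (chromosome 8, 11198423 to 11312826, minus strand) had 120, 119 and 116 FPKM in libraries labelled aged, against 106, 109 and 105 FPKM in those labelled young. The groups did not overlap for either gene, and the gap was wide for Col4a2 and narrow for Col4a1. Col4a2 rose 1.52-fold (log2 fold change 0.60 ± 0.03 SE, limma adjusted p = 8.50e-06) and Col4a1 rose 1.11-fold (log2 fold change 0.15 ± 0.03 SE, limma adjusted p = 0.00485). Without the 2 libraries holding kidney transcripts, Col4a1 had an adjusted p of 0.109. The antisense transcript Gm15418 overlaps Col4a1, at 2.39 ± 0.282 against 0.740 ± 0.174 FPKM in libraries labelled young. Col4a1 and Col4a2 overlap by 22 bases at their starts, and strand use in counting was not given in the sources used here, so reads from those bases cannot be told apart. All type IV chains together made up 22.3% ± 0.760 of summed collagen FPKM in libraries labelled aged and 13.4% ± 0.167 in those labelled young.

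The other type IV chains form the networks of kidney, lung and eye basement membranes. Col4a5, on the X chromosome (141475385 to 141689234, plus strand), had 10.7, 10.5 and 12.0 FPKM in libraries labelled aged and 10.8, 11.1 and 10.6 FPKM in those labelled young. These groups overlapped, and the 95% interval of the log2 fold change was -0.11 to 0.16 (limma adjusted p = 0.701). Its head-to-head neighbour Col4a6, 1308 bases away, reached at most 0.168 FPKM. Col4a3 and Col4a4, which start 71 bases apart on chromosome 1, reached at most 0.210 and 0.279 FPKM. Col4a4 had 0.213 FPKM (39 reads) in young replicate 1, the library with most kidney marker RNA. Young replicates 2 and 3 had 0.0868 and 0.126 FPKM (16 and 23 reads). Aged replicates 1, 2 and 3 had 0.279, 0.239 and 0.219 FPKM of Col4a4 (51, 43 and 40 reads). Col4a3 had 0.0757, 0.0693 and 0.0756 FPKM in young replicates 1, 2 and 3, and 0.210, 0.183 and 0.187 FPKM in aged replicates 1, 2 and 3. The part of kidney RNA in these values was not tested.

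Of the short network collagens that form hexagonal lattices, Col8a1 (chromosome 16, 57624258 to 57754737, minus strand) fell. It had 21.9, 22.2 and 21.5 FPKM in libraries labelled aged, against 32.5, 31.9 and 30.3 FPKM in those labelled young, with no overlap (1.44-fold, limma adjusted p = 5.02e-05). Its partner chain Col8a2 had 0.721 ± 0.227 FPKM in libraries labelled aged and 0.683 ± 0.103 FPKM in those labelled young, with overlapping groups and a 95% interval of -0.26 to 0.32 for the log2 fold change (limma adjusted p = 0.869). Col10a1, of hypertrophic cartilage, reached at most 0.149 FPKM.

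Type VI collagen, the beaded filament, fell in all 3 of its tested chains. Col6a1 (chromosome 10, 76708792 to 76726168, minus strand) had 70.7, 67.6 and 74.2 FPKM in libraries labelled aged, against 129, 128 and 129 FPKM in those labelled young (1.82-fold, limma adjusted p = 9.75e-06). Col6a2 (chromosome 10, 76595762 to 76623630, minus strand) had 17.1, 15.9 and 18.4 FPKM in libraries labelled aged, against 29.5, 29.8 and 31.2 FPKM in those labelled young (1.76-fold, limma adjusted p = 4.73e-05). Col6a3 (chromosome 1, 90765923 to 90843971, minus strand), the longest chain of the filament, had 66.1, 65.6 and 65.9 FPKM in libraries labelled aged, against 91.3, 91.4 and 85.7 FPKM in those labelled young (1.36-fold, limma adjusted p = 7.39e-05). In each chain every library labelled aged was below every library labelled young. Type VI chains made up 13.5% ± 0.189 of summed collagen FPKM in libraries labelled aged and 16.7% ± 0.323 in those labelled young. Col6a1 and Col6a2 lie 85161 bases apart on the same strand, and Col18a1, which was higher, lies 326009 bases beyond Col6a1 on that strand. The chains that can replace Col6a3, Col6a4, Col6a5 and Col6a6, next to each other on chromosome 9, reached at most 0.163, 0.0433 and 0.0571 FPKM.

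FACIT chains were led by Col16a1, a fibril-associated chain made by fibroblasts and smooth muscle cells. Col16a1 (chromosome 4, 130047840 to 130099283, plus strand) had 37.0, 39.0 and 39.0 FPKM in libraries labelled aged, against 74.1, 78.7 and 75.5 FPKM in those labelled young, with no overlap. It fell 1.98-fold (log2 fold change -0.97 ± 0.04 SE, limma adjusted p = 5.80e-06). Col9a1, a chain of the type IX collagen that coats cartilage fibrils, fell to 0.530 ± 0.0663 FPKM in libraries labelled aged, against 2.32 ± 0.108 FPKM in those labelled young (4.38-fold, limma adjusted p = 3.55e-05). Its partner Col9a3 had 2.11 ± 0.318 FPKM in libraries labelled aged and 2.25 ± 0.206 FPKM in those labelled young, with overlap and an interval of -0.29 to 0.16 (limma adjusted p = 0.575).

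Type IX collagen also holds Col9a2, which was below the filter, at most at 0.338 FPKM. Col9a2 had 48 reads over the libraries labelled aged and 5 over those labelled young, so its direction was opposite to that of Col9a1. Of all genes below the filter with at least 1 read, 69.9% also had more scaled reads in libraries labelled aged. Col12a1, a FACIT chain of tendon and dense connective tissue, was at 0.959 ± 0.0867 FPKM in libraries labelled aged and 0.267 ± 0.0668 FPKM in those labelled young (limma adjusted p = 0.00113). Col20a1, a FACIT chain described in chick embryos, was at 0.291 ± 0.0721 FPKM in libraries labelled aged and 1.44 ± 0.0798 FPKM in those labelled young (limma adjusted p = 0.000144). Each of these last 2 genes was tested through 1 group only, where it is high. Col20a1 shares its strand and position with the transcript 9230112E08Rik, which had 8.74 ± 0.511 FPKM in libraries labelled aged and 5.54 ± 0.171 FPKM in those labelled young. How the authors' counting split reads between that transcript and Col20a1 was not given in the sources used here. Col14a1, Col19a1 and Col22a1 reached at most 0.269, 0.101 and 0.237 FPKM.

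The basement membrane proteoglycan chain Col18a1, a multiplexin and the source of endostatin (chromosome 10, 77052178 to 77166548, minus strand), had 77.4, 77.4 and 76.6 FPKM in libraries labelled aged, against 66.4, 70.7 and 69.8 FPKM in those labelled young. The groups did not overlap, and the rise was 1.12-fold (log2 fold change 0.16 ± 0.03 SE, limma adjusted p = 0.00549), with an adjusted p of 0.0828 without the 2 libraries holding kidney transcripts. On the opposite strand, Slc19a1 overlaps the span of Col18a1, at 8.41 ± 0.320 against 10.1 ± 0.313 FPKM in libraries labelled young, and strand use in counting was not given. Col15a1, the other multiplexin, reached at most 0.281 FPKM. Col7a1, the anchoring fibril chain (chromosome 9, 108953586 to 108984875, plus strand), rose to 5.40, 5.19 and 4.88 FPKM in libraries labelled aged, against 2.56, 2.74 and 2.78 FPKM in those labelled young (1.91-fold, limma adjusted p = 6.19e-05).

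Of the transmembrane chains, Col17a1 alone was tested. This collagen of epithelial hemidesmosomes rose to 1.67 ± 0.165 FPKM in libraries labelled aged, against 0.973 ± 0.114 FPKM in those labelled young (1.72-fold, limma adjusted p = 0.00415, and 0.0566 without the 2 libraries holding kidney transcripts). Col23a1, Col25a1 and Col13a1 reached at most 0.355, 0.0774 and 0.0885 FPKM. Col26a1 and Col28a1, outside the other classes, reached at most 0.164 and 0.409 FPKM.

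The balance between partner chains was compared as a ratio of FPKM within each library, for the 7 pairs with both chains at a mean of 1 FPKM or more. An exact 2-sided permutation test over 3 against 3 libraries cannot go below p = 0.1, so no pair could pass 0.05. The Col4a1 to Col4a2 ratio was 0.967, 0.958 and 0.944 in libraries labelled aged, against 1.29, 1.33 and 1.30 in those labelled young. The Col5a1 to Col5a2 ratio was 1.03, 1.03 and 1.11 in libraries labelled aged, against 1.64, 1.68 and 1.71 in those labelled young. In both pairs the second chain gained on the first without overlap between groups (log2 differences of -0.45 and -0.67, exact permutation p = 0.1, adjusted over the 7 pairs p = 0.14).

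The groups overlapped for the other main pairs of type I and type VI collagen. The Col1a1 to Col1a2 ratio was 0.747 ± 0.0509 in libraries labelled aged and 0.731 ± 0.0188 in those labelled young, with overlap (log2 difference 0.03, exact permutation p = 0.8). The Col6a1 to Col6a2 ratio was 4.14 ± 0.115 in libraries labelled aged and 4.27 ± 0.130 in those labelled young, also with overlap (log2 difference -0.05, exact permutation p = 0.3). The other 3 pairs did not overlap between groups, each with exact permutation p = 0.1. Col6a3 to Col6a1 was 0.931 ± 0.0413 against 0.696 ± 0.0264 in libraries labelled young. Col3a1 to Col1a1 was 0.118 ± 0.00987 against 0.254 ± 0.00106 in libraries labelled young, and Col5a1 to Col1a1 was 0.506 ± 0.0282 against 0.386 ± 0.0118 in libraries labelled young.

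**Figure D4:**
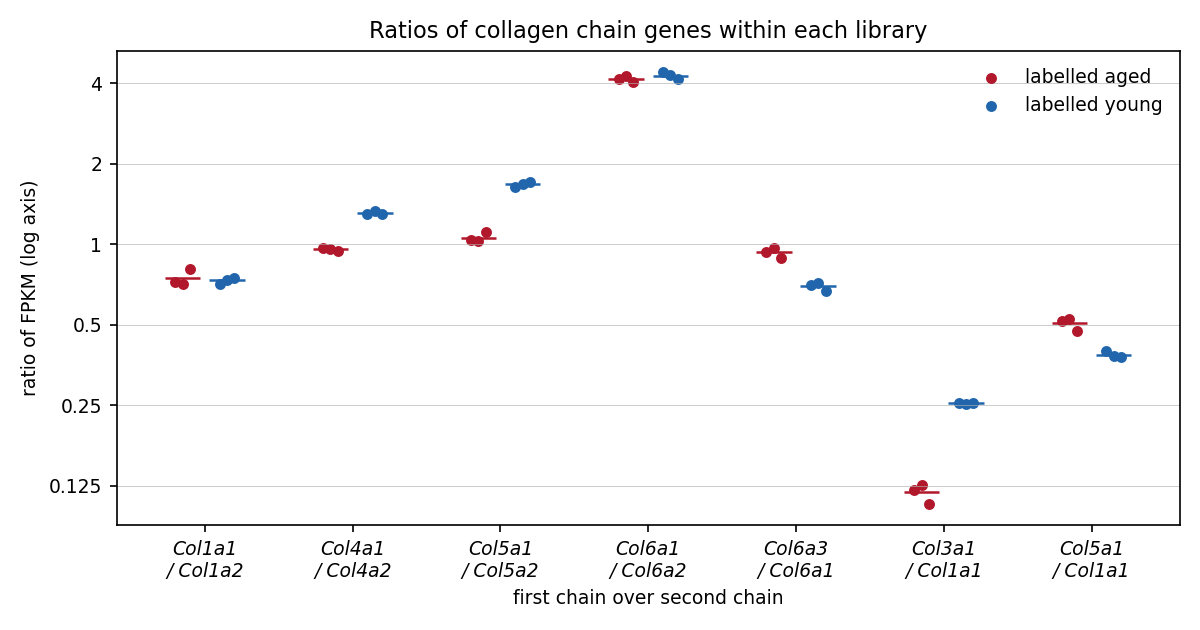
Ratio of FPKM of the first chain to the second (vertical log axis) in each library for 7 pairs, with points for single libraries, lines for group means and libraries labelled aged left of those labelled young. The groups overlap for Col1a1 over Col1a2 and Col6a1 over Col6a2 and are apart for the other 5 pairs.

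These ratios rest on the gene lengths of the table. For Col1a2 that length was 12426 bases, whereas its principal transcript in GENCODE M21, an annotation of the same build with the same coordinates for all 44 members, was 5348 bases. Per principal transcript, the Col1a1 to Col1a2 ratio was 0.356 in libraries labelled aged and 0.348 in those labelled young, and Col6a1 to Col6a2 was 2.10 and 2.16. A change of length cancels in the difference between groups for a single gene or a log2 ratio. The ratio itself, the order of genes by level, and sums and shares over several genes depend on it.

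The 21 chains below the filter were scarce in every library and mostly had more reads in the libraries labelled aged. Together they had 1172 reads in those labelled aged and 582 in those labelled young, whereas the 23 tested chains had 496180 and 659285 reads. Scaled to library size, 19 of the 21 had more reads in libraries labelled aged, and 69.9% of the 18479 genes below the filter with at least 1 read did so (74.1% of the protein-coding ones). At least 1 read was found for 26703 to 26925 genes per library labelled aged and for 24074 to 24363 per library labelled young. The part of that difference in the collagen counts was not tested.

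With limma's voom on recovered reads and no filter, chosen after the data were seen, 11 of the 21 were called higher and 0 lower, beside 10.5% and 2.12% of all genes below the filter. Limma on log2(FPKM + 1) with no filter called 5 of the 21 higher and 0 lower, beside 6.11% and 1.37% of the genes below the filter. Col22a1, a FACIT chain of muscle-tendon junctions, had 93 reads in libraries labelled aged and 18 in those labelled young, and after scaling to library size the ratio was 5.22 (exact 95% counting interval 3.13 to 9.19, voom adjusted p = 0.000702). Col9a2 had 48 and 5 reads and a scaled ratio of 9.69 (interval 3.88 to 31.2, voom adjusted p = 0.00161). Col4a3 had 99 and 38 reads and a scaled ratio of 2.63 (interval 1.79 to 3.93, voom adjusted p = 0.00197). Col4a6 had 41 reads in libraries labelled aged and 3 in those labelled young, with a scaled ratio of 13.8 (interval 4.40 to 69.7). Col15a1 and Col6a4 were the 2 exceptions, with 83 and 43 reads in libraries labelled aged and 88 and 51 reads in those labelled young. Intervals cover counting error only.

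**Figure D5:**
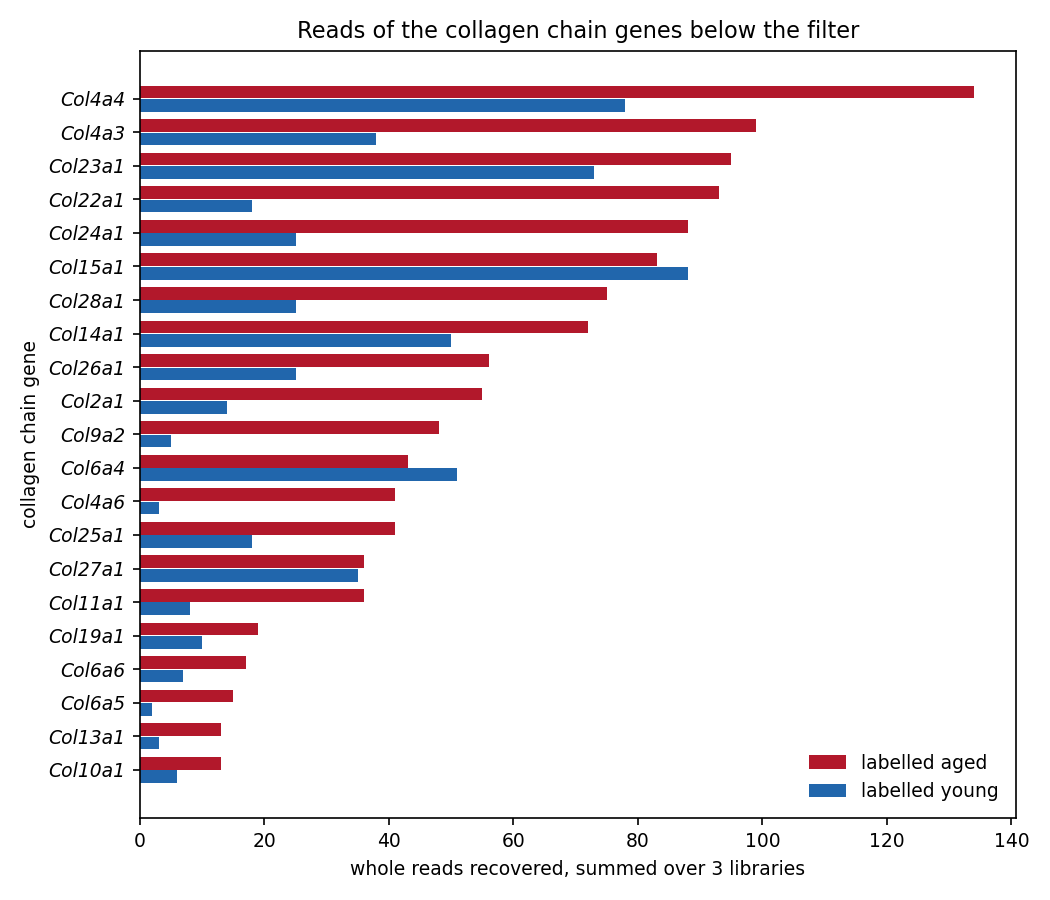
Whole reads recovered, summed over 3 libraries (horizontal axis), of the 21 chains below the filter, with libraries labelled aged above those labelled young for each gene. All but Col15a1 and Col6a4 have the longer bar in libraries labelled aged, and the largest count is 134 reads, for Col4a4.

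Genes that fold and hydroxylate collagen chains were mostly lower, with 11 of 15 tested lower, 0 higher and 4 not past the threshold (median log2 fold change -0.60). Over all tested genes 32.3% were lower and 27.7% higher. P4ha1, a catalytic subunit of collagen prolyl 4-hydroxylase, fell to 35.8 ± 1.81 FPKM in libraries labelled aged, against 103 ± 1.80 FPKM in those labelled young (limma adjusted p = 2.30e-06). Plod1, a lysyl hydroxylase, fell to 14.3 ± 0.860 FPKM, against 39.8 ± 1.66 FPKM in libraries labelled young. Colgalt1, which adds galactose to hydroxylysine, fell to 25.0 ± 0.493 FPKM, against 43.3 ± 1.85 FPKM. Serpinh1 (Hsp47), the chaperone of the triple helix, fell to 330 ± 3.82 FPKM, against 491 ± 12.9 FPKM in libraries labelled young.

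Genes of secretion and propeptide removal had 7 of 11 tested lower, 2 higher and 2 not past the threshold (median log2 fold change -0.28), beside 32.3% lower and 27.7% higher over all tested genes. Adamts14, a propeptidase of fibrillar procollagen, fell to 2.10 ± 0.0993 FPKM in libraries labelled aged, against 6.80 ± 0.298 FPKM in those labelled young. Pcolce, which speeds removal of the C-propeptide, fell to 84.8 ± 2.49 FPKM, against 154 ± 5.06 FPKM in libraries labelled young. Its relative Pcolce2 went the other way, at 14.4 ± 1.28 against 7.52 ± 0.266 FPKM. Sec23a, of the coat of secretory vesicles, fell to 15.6 ± 1.14 FPKM, against 25.3 ± 0.904 FPKM.

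Of the lysyl oxidases, 2 of 4 tested were lower and 2 higher (32.3% and 27.7% over all tested genes). Loxl1 fell to 67.5 ± 1.56 FPKM in libraries labelled aged, against 130 ± 1.85 FPKM in those labelled young, and Loxl2 to 19.1 ± 0.748 FPKM, against 29.4 ± 1.70 FPKM. Loxl4 rose to 32.8 ± 1.10 FPKM, against 14.7 ± 0.813 FPKM in libraries labelled young, and Loxl3 to 29.1 ± 2.11 FPKM, against 13.2 ± 0.400 FPKM. Lox itself reached at most 0.0967 FPKM.

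Receptors and breakdown enzymes included few tested genes. Of 10 collagen receptors, 5 were tested, with 2 higher, 1 lower and 2 not past the threshold, so 3 of 5 were called where 60.0% of all tested genes were. Itgb1, the beta 1 integrin chain of all collagen-binding integrins, was at 103 ± 4.88 FPKM in libraries labelled aged and 85.8 ± 0.862 FPKM in those labelled young (limma adjusted p = 0.00144). Itga10 rose to 1.21 ± 0.117 FPKM, against 0.498 ± 0.0856 FPKM, and Ddr1, a receptor tyrosine kinase for collagen, fell to 19.1 ± 0.861 FPKM, against 21.8 ± 0.283 FPKM in libraries labelled young. Ddr2 was at 43.8 ± 1.53 against 46.2 ± 0.589 FPKM and did not pass (limma adjusted p = 0.110).

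Of 8 breakdown enzymes, 3 were tested, with 2 higher and 0 lower, beside 27.7% and 32.3% of all tested genes. Ctsk, the collagen-cutting cathepsin K, rose to 52.6 ± 2.23 FPKM in libraries labelled aged, against 20.9 ± 0.414 FPKM in those labelled young (limma adjusted p = 2.78e-06). Mmp14, a membrane-bound collagenase, rose to 32.4 ± 0.487 FPKM, against 27.8 ± 0.750 FPKM. Mmp2 was at 2.56 ± 0.340 against 2.50 ± 0.281 FPKM (limma adjusted p = 0.857). Below the filter, Fap was at 0.0344 against 0.320 FPKM (10 reads against 94). Also below it, Mmp8, Mmp9 and Mmp13 had 12, 42 and 12 reads in libraries labelled aged against 0, 7 and 0 in those labelled young.

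Of proteins that bind fibrils, 3 of 8 tested were higher, 4 lower and 1 not past the threshold, beside 27.7% higher and 32.3% lower over all tested genes. Fn1, the fibronectin on which fibrils assemble, rose to 960 ± 35.3 FPKM in libraries labelled aged, against 526 ± 3.91 FPKM in those labelled young. Prelp, a leucine-rich matrix protein, rose to 228 ± 10.7 FPKM, against 167 ± 5.03 FPKM. Tnxb, tenascin X, fell to 8.93 ± 1.40 FPKM, against 22.5 ± 0.676 FPKM in libraries labelled young, and Thbs1, thrombospondin 1, to 0.359 ± 0.0210 FPKM, against 1.71 ± 0.158 FPKM. Dcn and Lum, the small proteoglycans of type I fibrils, reached at most 0.109 and 0.0482 FPKM.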

How the data were processed

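Per the labels' protocols, TRIzol-extracted RNA was sequenced on an Illumina NovaSeq instrument, with paired reads placed on the genome by HISAT2 2.0.5. Per the submitters' processing notes the build was mm10. The counter, annotation and strand use were not given in the sources used here. The authors deposited FPKM values for 54532 genes. In every library, 100% of values above 0, times gene length, were whole multiples of 1 step within 0.01, so whole reads were recovered, and 3 reads on 1 kilobase correspond to 0.173 to 0.177 FPKM. The step matched median-of-ratios library sizes. Spreadsheet dates had replaced 27 symbols, which were restored by gene ID. Each library was counted as 1 sample. Chi-square per degree of freedom was 2.25 to 4.93 within groups, which cannot show whether the libraries came from separate mice.

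Values were tested as log2(FPKM + 1) with limma 3.58.1 in R 4.3.3 (linear model on group, mean-variance trend, 2-sided, Benjamini-Hochberg over 15197 genes with at least 0.5 FPKM in at least 3 libraries, threshold 0.05). Log2 fold changes understate low genes, and printed folds are ratios of mean FPKM. The fit was tested on simulated reads. Other steps used Python 3.11.15, pandas 2.3.3, scipy 1.17.1 and matplotlib 3.10.9. Members with a group mean of at least 10 FPKM are given in every library, others by mean and SD or highest value, with up to 4 genes of smallest p per pathway list. Genes named outside this rule were chosen after their values were seen. Members and lists were chosen with earlier results of these data known. Alternatives were other pseudocounts, filters, scalings and thresholds, voom, a replicate block and left-out libraries.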

Additional observations from a re-analysis of the deposited data

How the results depend on the processing

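The collagen counts of 7 higher and 12 lower did not change with a pseudocount of 0.1, median centring, TPM, limma without the trend, voom, a threshold of 0.01 or leaving out any 1 library. Without a filter all 44 were tested, with 12 higher and 12 lower, beside 4814 (14.3%) and 4516 of 33676 genes. With voom on recovered reads and no filter, 18 were higher and 12 lower, beside 5893 (17.5%) and 5041 of those genes. Voom with the filter called 9510 of all genes, against 9115. With a filter on a mean of 1 FPKM, 6 of 20 were higher and 11 lower, beside 3745 and 4647 of 12981 genes. A further fit left out the 2 libraries holding kidney transcripts. That fit, which like voom with no filter and principal transcript lengths was chosen after seeing the data, keeps 1 young library, assumed to vary like the others, and so has fewer samples. There the Col4a1 to Col4a2 log2 difference was -0.48. The ratio of summed collagen FPKM was 0.839 without Col1a1 and Col1a2, 0.742 with principal transcript lengths, which give Col1a2 more weight, and 0.757 to 0.776 over left-out libraries.

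Signs turned only in 4 members that passed the threshold under no alternative. Over left-out libraries, log2 fold changes ran from -0.029 (without aged replicate 3) to 0.062 for Col4a5, from -0.14 to 0.0045 (without aged replicate 3) for Col9a3, from -0.10 to 0.090 (without aged replicate 3) for Col11a2 and from -0.072 (without aged replicate 2) to 0.12 for Col8a2. Col11a2 was at 0.041 with median centring. Without the libraries holding kidney transcripts, Col8a2 was at -0.069 and Col4a5 at -0.0047. Depth limits the 21 chains below the filter, which held 2 to 134 reads per group.

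With the replicate number as a block, 8441 genes were called in place of 9115, and the collagen counts stayed 7 and 12. For the chain ratios, sign flips within replicate numbers gave p of 0.25, the smallest they can give, or above. Deviations of same-numbered libraries correlated at 0.0056, -0.0079 and 0.0192, so no effect shared by same-numbered libraries was seen. Low correlations cannot show that the samples were not paired.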
